A study of Mus musculus with 15 samples.

Results

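The response that 3 kinase inhibitors had in common was examined in mouse primary chondrocytes. The 9 arrays of the inhibitors LY294002, U0126 and SB202190, 3 for each compound, were combined as the mean of the 3 group means and set against 3 arrays of cells given the vehicle DMSO, which made 12 of the 15 arrays in the series. A probe set, the group of short array probes that reads a transcript, was tested where its mean log2 signal was at least 5.64 (a signal of 50) on either side, and 34509 of 45037 probe sets passed. These covered 15900 of the 18193 genes represented on the array. A probe set counted as moved the same way by all 3 inhibitors where each inhibitor, fitted on its own against DMSO, passed an adjusted p of 0.05 with the same sign, and 49 of the 34509 probe sets did so.

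The cells came from hind limb cartilage of CD1 mouse embryos at embryonic day 15.5, grown as monolayers, and RNA from each culture was hybridized to an Affymetrix MOE 430 2.0 array. The 4 groups used here were DMSO alone, LY294002 at 10 µM, U0126 and SB202190, each with 3 biological replicates of 1 array, and another group given the histone deacetylase inhibitor Trichostatin A served for comparison and for the estimate of spread. The labels and methods give 24 h of treatment, whereas the design text gives 2 h. The doses of U0126 and SB202190 are not given in the sources used here. The labels write these groups as UO126 and SB90, which were read as U0126 and SB202190 from the design text. Cultures prepared in this way hold whatever cells the dissected cartilage carried. In such bulk samples fewer cells of a type and less RNA per cell cannot be told apart.

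LY294002 blocks phosphoinositide 3-kinase (PI3K), the lipid kinase that activates Akt downstream of insulin and growth factor receptors. U0126 blocks MEK, the kinase that activates ERK, and SB202190 is known as an inhibitor of the stress-activated kinase p38, although the design text groups it with U0126. In the growth plate these pathways act on the proliferation, matrix production and hypertrophy of chondrocytes, the cells that make cartilage and then enlarge before bone replaces it. The 3 compounds also have targets outside these pathways.

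The average over the inhibitors differed from DMSO at 853 probe sets (2.47% of those tested), of which 620 were higher (1.80%) and 233 were lower (0.675%). At the level of genes, each represented by its brightest probe set, 415 of 15900 were higher (2.61%) and 130 were lower (0.818%). The changes were small: 94 of the higher and 101 of the lower probe sets reached 1.4-fold, and 1 and 6 reached 2-fold. Of the 853 probe sets 791 had the same sign in all 3 inhibitors and 62 did not, beside a same sign at 50.7% of all tested probe sets. The 853 were chosen by the average of the same 3 differences, which raises that count in advance, so it does not measure agreement. Against DMSO on its own, LY294002 passed at 2339 higher (6.78%) and 616 lower (1.79%) probe sets, U0126 at 388 (1.12%) and 274 (0.794%), and SB202190 at 417 (1.21%) and 244 (0.707%). Of the 853, 370 passed on their own in LY294002 alone, 164 in LY294002 and SB202190, 159 in LY294002 and U0126, 54 in all 3 and 9 in none. The 3 comparisons share the DMSO arrays, so these counts are not independent of each other. With DMSO array 1 left out the average gave 1146 higher and 208 lower probe sets, with DMSO array 2 left out 95 and 112, and with DMSO array 3 left out 84 and 83. Leaving out U0126 array 1 or 3 gave 392 or 373 higher, and leaving out SB202190 array 1, 2 or 3 gave 381, 342 or 396 higher, with 154 lower without SB202190 array 2. Quantile normalization between arrays gave 885 higher and 548 lower, a share of 61.8% higher against 72.7%, and the replicate number as a block over all 15 arrays gave 1843 higher and 727 lower.

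**Figure D1:**
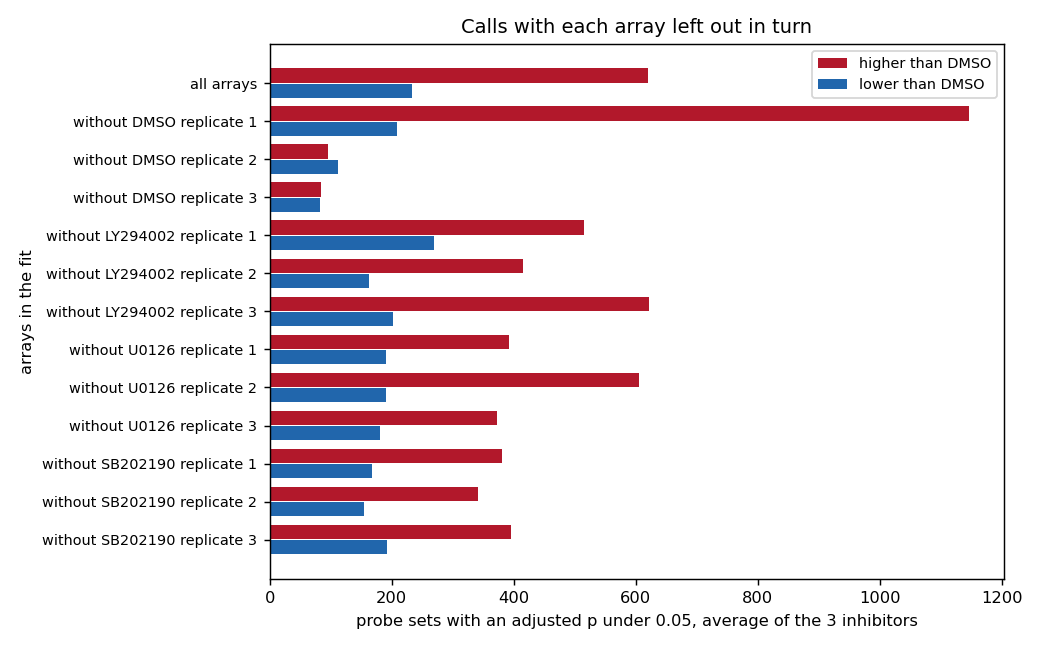
Probe sets called in the average of the 3 inhibitors against DMSO (horizontal axis, number with an adjusted p under 0.05) with all arrays and with each array left out in turn (vertical axis); red bars are probe sets higher than DMSO, blue bars lower. The counts move from 620 higher with all arrays to 1146 without DMSO array 1, 95 without DMSO array 2 and 84 without DMSO array 3.

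Median log2 signals were alike over the 15 arrays, between 6.90 and 6.998. Cartilage genes were bright: Col2a1, the main cartilage collagen, lay between 14.29 and 14.44 on the 12 arrays and Acan, the gene of the proteoglycan aggrecan, between 11.82 and 13.30. Most markers of other cells were also above the level of the filter in the mean of the 12 arrays. Below it were 4 of 11 endothelial markers (Pecam1, Cdh5, Tie1 and Vwf), 5 of 21 of leukocytes (Ptprc, Itgam, Itgb2, C1qb and Aif1), 1 of 12 of epithelium (Cdh1), 3 of 28 of skeletal muscle, 1 of 11 of osteoclasts, 2 of 5 of erythroid cells and 0 of 19 of fibroblasts and perichondrium. How precise each value below can be is limited by the 3 arrays in a group.

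The 49 probe sets moved the same way by all 3 compounds, 25 higher (0.0724% of those tested) and 24 lower (0.0695%), made up 0.142% of those tested and represented 37 named genes, 21 higher and 16 lower, and 7 probe sets with no gene in the annotation used. Among named genes with decreases, the lubricin gene Prg4 was 2.77-fold, the interleukin-1 receptor antagonist gene Il1rn 2.10-fold, the connexin gene Gjb2 1.93-fold and the hyaluronan synthase gene Has2 1.80-fold lower. The largest increases were in Nnat, 2.48-fold higher, and in the protease gene Adamts9, 1.92-fold higher. The absolute average difference over the 49 ran from 0.36 to 1.73 with a median of 0.59 on the log2 scale. At 48 of the 49 all 9 inhibitor arrays lay beyond all 3 DMSO arrays (2.63% of all tested probe sets did so), a count that the choice of members largely fixes. The counts moved by over 1.5 times without DMSO array 1 (45 higher), DMSO array 2 (14 higher), DMSO array 3 (10 higher and 13 lower), LY294002 array 2 (16 and 15), U0126 array 1 (16 higher), U0126 array 3 (15 and 15), SB202190 array 1 (12 and 9), SB202190 array 2 (12 and 13) and SB202190 array 3 (15 higher). They were 55 and 55 after quantile normalization and 100 and 79 with the replicate block. By the largest of the 3 adjusted p values, the members just inside the limit were Armh4 at 0.0459, Tfpi2 at 0.0466 and Adam8 at 0.0486, and the genes just outside were Gm15417 at 0.0531, Ulk1 at 0.0534 and Npr3 at 0.0534.

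**Figure D2:**
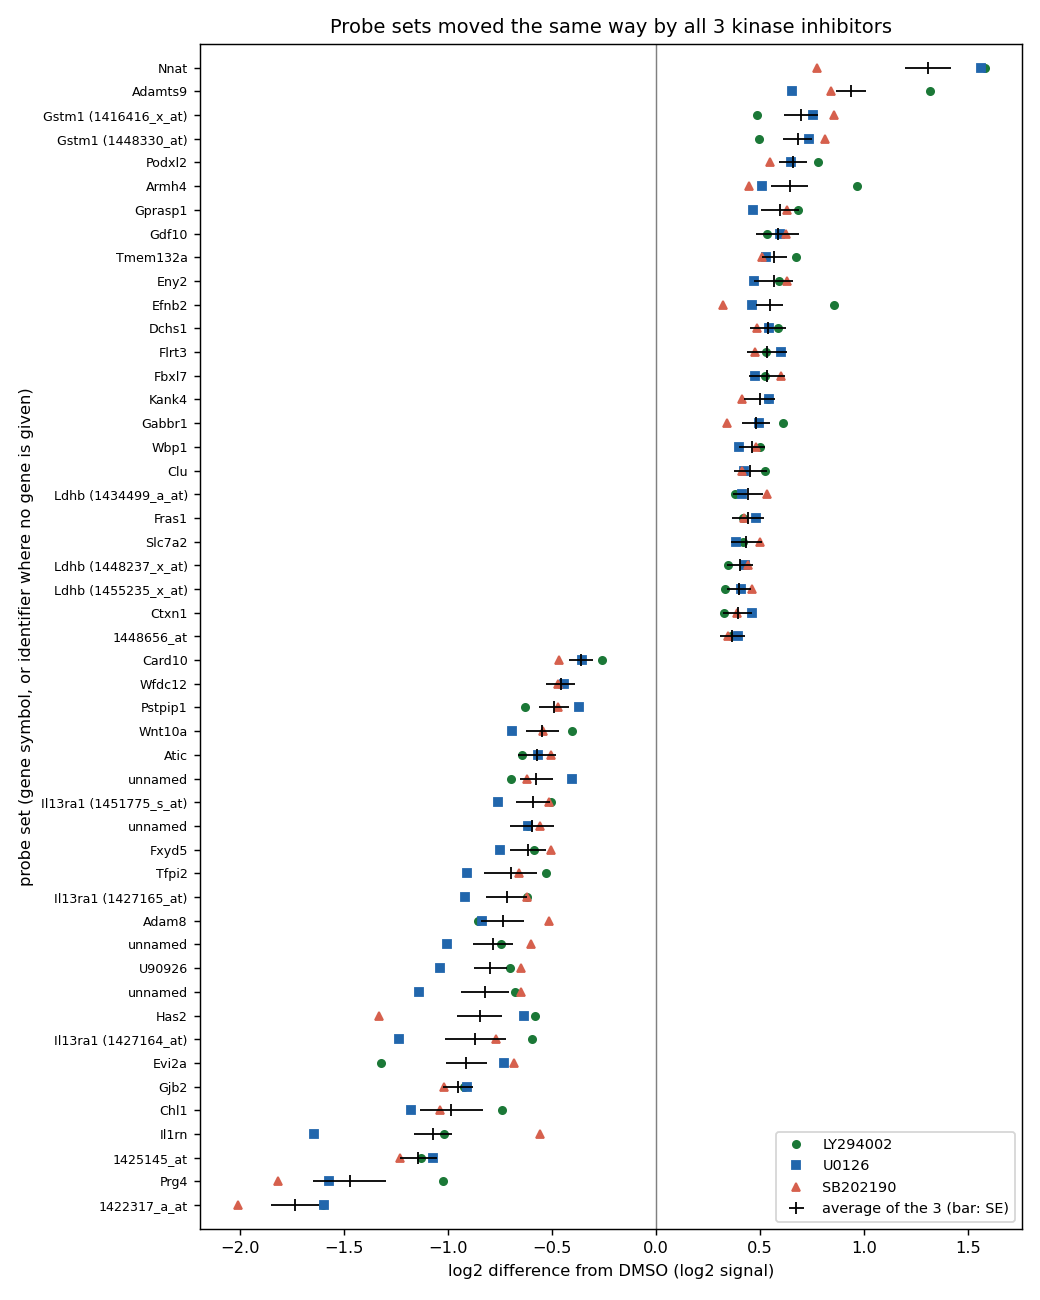
Log2 difference from DMSO (horizontal axis) of the 49 probe sets that all 3 inhibitors moved the same way (vertical axis, ordered by the average); circles are LY294002, squares U0126, triangles SB202190, and the black tick with its bar is the average and its SE. The 25 higher probe sets reach 1.31 in Nnat and the 24 lower ones reach -1.73 in an unnamed probe set and -1.47 in Prg4.

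Among the lower genes, Prg4 (chromosome 1) encodes lubricin, the lubricating proteoglycan that surface-zone chondrocytes and synovial cells secrete. Its log2 signal was 9.42, 9.30 and 9.29 on the DMSO arrays, 8.34, 8.34 and 8.25 with LY294002, 7.90, 7.88 and 7.52 with U0126 and 7.52, 7.77 and 7.26 with SB202190. All 9 inhibitor arrays lay below the lowest DMSO array, and the SB202190 and U0126 arrays overlapped each other at the bottom. The average difference was -1.47 ± 0.17 on the log2 scale (SE, limma adjusted p = 0.000475), and it was -1.50, -1.30 and -1.61 over the arrays numbered 1, 2 and 3.

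Has2 (chromosome 15) encodes a hyaluronan synthase, which makes the polysaccharide that holds aggrecan in the matrix. It measured 10.27, 9.87 and 9.93 with DMSO, 9.78, 9.36 and 9.20 with LY294002, 9.45, 9.27 and 9.46 with U0126 and 8.81, 8.71 and 8.55 with SB202190. The SB202190 arrays were the lowest, and the highest LY294002 array lay just under the lowest DMSO array. The average was -0.85 ± 0.11 (SE, limma adjusted p = 0.00089), and the other Has2 probe set gave -0.72 (adjusted p = 0.0126).

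Gjb2 (chromosome 14) encodes connexin 26, a gap junction channel. Its DMSO arrays read 8.21, 8.30 and 8.54, and the inhibitor arrays read 7.30, 7.51 and 7.48 with LY294002, 7.46, 7.44 and 7.43 with U0126 and 7.30, 7.35 and 7.35 with SB202190. The 9 inhibitor arrays formed a narrow band below DMSO, with differences of -0.92, -0.91 and -1.02 for the 3 compounds. The average was -0.95 ± 0.072 (SE, limma adjusted p = 4.73e-06), and Gjb2 was the 1 gene of the 24 named shared genes that passed in all 3 inhibitors under each of the 28 alternative settings.

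Genes of cytokine action were also among the lower members. Il1rn (chromosome 2), which encodes the natural antagonist of the interleukin-1 receptor, read 9.55, 9.57 and 9.60 with DMSO, 8.69, 8.57 and 8.40 with LY294002, 7.85, 7.88 and 8.05 with U0126 and 8.91, 9.20 and 8.94 with SB202190. The U0126 arrays were the lowest and the SB202190 arrays the nearest to DMSO, with no overlap. The average was -1.07 ± 0.092 (SE, limma adjusted p = 1.22e-05), and its 2 other probe sets were lower as well, at -0.74 and -0.43. Il13ra1 (chromosome X), a subunit of the receptor for interleukin-13, was lower by its brightest probe set, which read 9.36, 9.22 and 9.55 with DMSO and between 8.34 and 8.88 on the inhibitor arrays, at -0.72 ± 0.097. In all, 3 of its 5 probe sets passed in all 3 inhibitors. Wnt10a (chromosome 1), a secreted Wnt ligand, read 8.26, 8.01 and 8.14 with DMSO and between 7.32 and 7.87 with the inhibitors, an average of -0.55 ± 0.080.

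**Figure D3:**
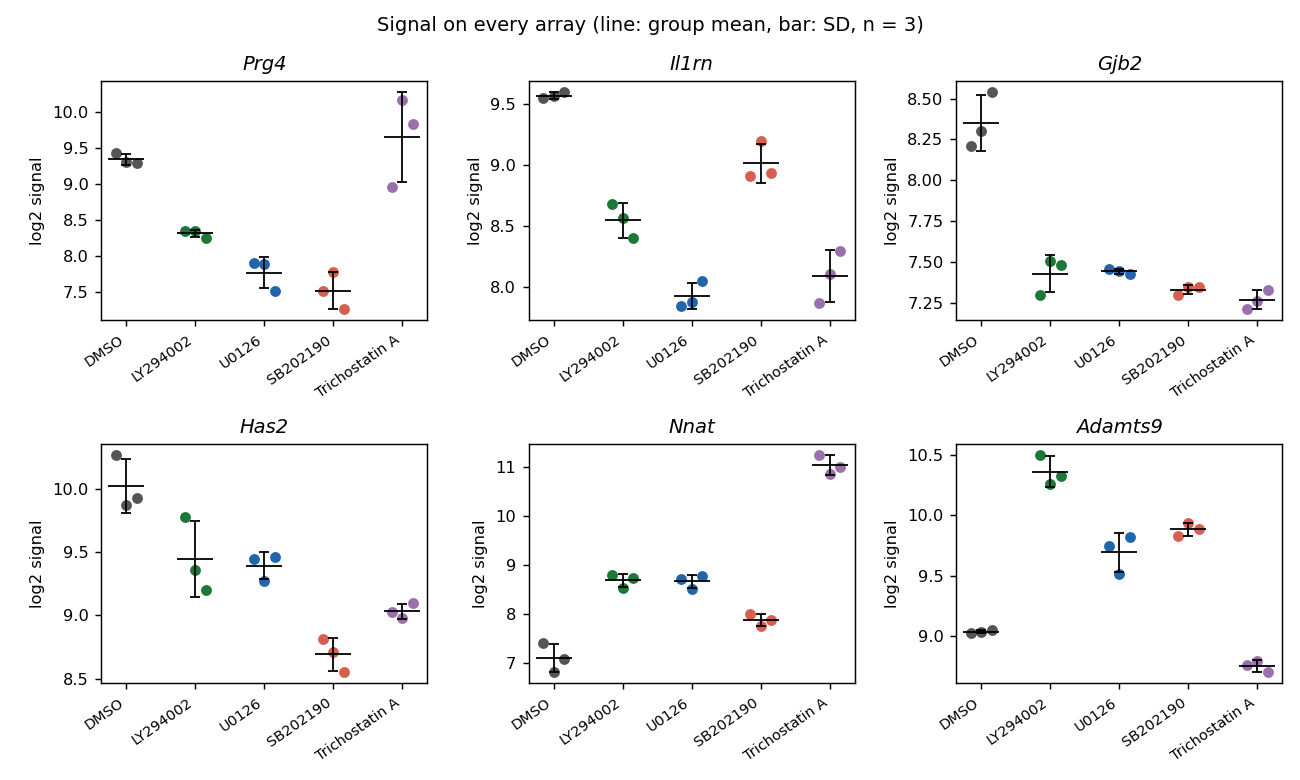
Log2 signal (vertical axis) of 6 genes on each of the 15 arrays by treatment (horizontal axis); points are arrays, the line is the group mean and the bar its SD (n = 3). In Prg4, Il1rn, Gjb2 and Has2 the 9 kinase inhibitor arrays lie below the DMSO arrays, in Nnat and Adamts9 above them, while Trichostatin A arrays lie at 8.96 to 10.17 in Prg4 and 10.86 to 11.25 in Nnat.

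Several lower members act at the cell surface or on proteases. Adam8, a membrane metalloprotease, read 7.89, 8.11 and 8.33 with DMSO, 7.19, 7.29 and 7.28 with LY294002, 7.07, 7.50 and 7.24 with U0126 and 7.38, 7.60 and 7.80 with SB202190, with 1 SB202190 array close to the lowest DMSO array. Its average was -0.74 ± 0.10, and that of Tfpi2, a secreted inhibitor of serine proteases, was -0.70 ± 0.13. Wfdc12, of the whey acidic protein inhibitors, averaged -0.46 ± 0.070. Chl1, a neural cell adhesion molecule, averaged -0.98 ± 0.15 at a low level (mean log2 signal 6.90 with DMSO and 5.92 with the inhibitors), and its other probe set gave -0.08 (adjusted p = 0.855). Fxyd5, a regulator of the sodium pump, averaged -0.61 ± 0.086, U90926 -0.80 ± 0.081, and Evi2a -0.91 ± 0.099. Pstpip1, a cytoskeletal adaptor best known from blood cells, read 6.94, 6.93 and 7.18 with DMSO and between 6.31 and 6.74 with the inhibitors, at -0.49 ± 0.072. The remaining named members were Atic, an enzyme of purine synthesis, at -0.57, and Card10, a scaffold protein of NF-kB signalling, at -0.36. The other Atic probe set gave -0.21 (adjusted p = 0.2325).

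Il1rn, Adam8, Evi2a and Pstpip1 are also known from leukocytes, so the list of macrophage and leukocyte markers was set beside them. Of its 17 tested members 15 had a lower mean with the inhibitors, beside 7522 of all 15900 genes, and 0 passed the limma test. An unadjusted p under 0.05 was found in 4, and the share of all genes at that threshold was not counted. The summed signal of the list was 3660 to 4820 with DMSO, 3270 to 3890 with LY294002, 3310 to 3840 with U0126 and 3660 to 3970 with SB202190. Laptm5, the marker with the largest difference, read 9.75, 9.57 and 10.57 with DMSO and between 8.37 and 9.91 with the inhibitors, so the groups overlapped (adjusted p = 0.104, and 0.0325 with the replicate block). Their part in the result was not tested.

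The higher genes were led by Nnat (chromosome 2), which encodes the small membrane protein neuronatin. It read 7.40, 6.82 and 7.08 with DMSO, 8.79, 8.53 and 8.73 with LY294002, 8.71, 8.51 and 8.76 with U0126 and 7.99, 7.75 and 7.88 with SB202190. All inhibitor arrays were above DMSO, and SB202190 formed a lower step than the other compounds. The average was 1.31 ± 0.11 (SE, limma adjusted p = 1.22e-05).

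Adamts9 (chromosome 6) encodes a secreted metalloprotease that cleaves aggrecan and versican. It read 9.03, 9.03 and 9.05 with DMSO, 10.50, 10.25 and 10.32 with LY294002, 9.75, 9.51 and 9.82 with U0126 and 9.83, 9.93 and 9.89 with SB202190. The LY294002 arrays were the highest and none overlapped DMSO. The average was 0.94 ± 0.073 (SE, limma adjusted p = 4.73e-06), while the other, dimmer Adamts9 probe set gave -0.06 ± 0.11 (adjusted p = 0.861).

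Among metabolic genes, Gstm1 (chromosome 3), a glutathione S-transferase, read 9.93, 10.04 and 9.70 with DMSO and between 10.25 and 10.83 with the inhibitors. Its average was 0.70 ± 0.081, and all 4 of its probe sets passed in the average, at 0.32 to 0.70. Ldhb, a subunit of lactate dehydrogenase, passed in all 3 compounds with 3 probe sets at 0.40 to 0.44, and its other probe set gave 0.32 (adjusted p = 0.0146). Slc7a2, a transporter of cationic amino acids, averaged 0.44, while its other probe sets gave 0.26 (adjusted p = 0.231) and 0.01 (adjusted p = 0.971). Glutathione transferases form a family of similar sequence and the suffix x of some Gstm1, Ldhb and Clu probe sets marks probes shared with other transcripts, so the gene behind part of these signals is uncertain.

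Other higher members act in signalling and adhesion. Gdf10, a secreted factor of the TGF-beta family also called BMP3b, read 9.24, 9.09 and 9.17 with DMSO and at 9.60 or above with the inhibitors. It averaged 0.59 ± 0.10 (limma adjusted p = 0.00778), and the value passed neither without DMSO array 2 (adjusted p = 0.0585) nor without DMSO array 3 (adjusted p = 0.0501). Podxl2, a sialomucin of the cell surface, averaged 0.66 ± 0.066, Dchs1, a large cadherin that binds Fat4, 0.54 ± 0.087, and Efnb2, the ligand ephrin-B2, 0.55 ± 0.066. Of the 3 other Efnb2 probe sets 1 passed, at 0.52, and the others gave 0.18 (adjusted p = 0.177) and -0.04 (adjusted p = 0.862). Flrt3, a leucine-rich repeat adhesion protein, averaged 0.54, Fras1, an extracellular matrix protein of basement membranes, 0.44, and Gabbr1, a subunit of the GABA-B receptor, 0.48. The other probe sets did not pass, at 0.30 in Flrt3 (adjusted p = 0.279) and at -0.04 and 0.21 in Gabbr1 (adjusted p = 0.895 and 0.118). Kank4, an adaptor of the actin cytoskeleton, averaged 0.50, Clu, the secreted chaperone clusterin, 0.45, and Gprasp1, which sorts G protein-coupled receptors, 0.60. The other Gprasp1 probe set gave -0.02 (adjusted p = 0.956). Fbxl7, an F-box protein of ubiquitin ligases, averaged 0.54, and its 2 other probe sets gave -0.02 (adjusted p = 0.907) and 0.11 (adjusted p = 0.612). Eny2, a subunit of the SAGA complex, averaged 0.57 by a probe set that is not its brightest, and its 5 others gave 0.05 to 0.23 and did not pass (adjusted p = 0.192 to 0.852). Armh4 averaged 0.64, Tmem132a 0.57, Wbp1 0.46 and Ctxn1 0.39. Fbxl7 did not pass in the average without DMSO array 3, nor as the mean of all its probe sets (adjusted p = 0.137).

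Of the 37 named genes 21 had 1 tested probe set and 16 had more. The 30 further probe sets of these 16 had the direction of the member in 25 cases and the opposite in 5, and 10 of the 25 and 0 of the 5 passed in the average. The 5 belonged to Adamts9, Efnb2, Fbxl7, Gabbr1 and Gprasp1. In Atic, Chl1, Clu, Efnb2, Eny2, Flrt3, Gabbr1 and Ldhb no member was the brightest probe set of its gene. The unnamed member 1422317_a_at had the largest decrease of the 49, -1.73 ± 0.12, and 1425145_at had -1.14 ± 0.088, with differences of -1.13, -1.07 and -1.23 for LY294002, U0126 and SB202190. The 1 unnamed higher member, 1448656_at, averaged 0.37 ± 0.061.

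RefSeq promoters (GRCm38.p6) were at hand for 27 of the 37 genes, 15 higher and 12 lower, and 250 bases before each start were searched for 8 short motifs, among them those of factors that act downstream of these kinases. A gene counted where any of its promoters matched, whereas the percentages are over single promoters, so the 2 are not in the same unit. The AP-1 motif TGACTCA, on either strand, was in 1 of the 27 genes, Il1rn, and in 4.46% of 32851 promoters. The FOXO motif TGTTTAC was in Adam8 and in 3.17% of all promoters. The antioxidant response motif TGACNNNGC was in 5 of the 27 genes, Armh4, Ctxn1, Efnb2, Kank4 and Wfdc12, and in 10.2% of all promoters. The CREB motif TGACGTCA (1.55% of all promoters), the ETS motif CCGGAAGT (2.88%), the palindromic CLEAR motif of TFEB (0.24%), the NF-kB motif (0.14%) and the TATA box TATAAAA, searched on the forward strand alone (991 of 32851), were in none of the 27. The other motifs were read on both strands, and the antioxidant motif can overlap the AP-1 motif. A match is a description of letters and not a site of binding. The windows of Il1rn (chr2:24336610-24336859, plus strand), Adam8 (chr7:139992563-139992812, minus strand) and Kank4 (chr4:98817538-98817787, minus strand) are printed 5′ to 3′ as the examples of the 3 motifs, with the matched letters in capitals, read on the reverse strand in Il1rn and Kank4.
Il1rn: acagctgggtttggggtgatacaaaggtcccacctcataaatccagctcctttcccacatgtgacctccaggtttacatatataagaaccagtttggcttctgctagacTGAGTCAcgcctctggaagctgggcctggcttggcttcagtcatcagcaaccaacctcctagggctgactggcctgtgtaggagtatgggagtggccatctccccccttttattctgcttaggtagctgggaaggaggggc
Adam8: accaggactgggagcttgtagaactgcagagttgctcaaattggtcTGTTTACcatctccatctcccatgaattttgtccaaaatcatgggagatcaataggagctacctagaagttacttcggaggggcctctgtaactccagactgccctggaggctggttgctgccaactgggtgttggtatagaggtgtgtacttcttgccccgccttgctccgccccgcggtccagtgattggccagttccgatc
Kank4: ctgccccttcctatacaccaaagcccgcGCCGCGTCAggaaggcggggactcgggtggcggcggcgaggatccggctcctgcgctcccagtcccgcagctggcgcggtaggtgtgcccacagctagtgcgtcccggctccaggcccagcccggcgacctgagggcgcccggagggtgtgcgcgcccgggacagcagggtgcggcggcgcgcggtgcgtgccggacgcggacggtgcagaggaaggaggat

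The sizes of the shared changes were not always equal. A moderated F test among the 3 inhibitors, which does not use DMSO, passed at 9 of the 49 probe sets, at 409 of the 853 (47.9%) and at 9.07% of all probe sets. Il1rn had differences of -1.02, -1.64 and -0.56 with LY294002, U0126 and SB202190, Has2 -0.58, -0.63 and -1.33, and Evi2a -1.32, -0.73 and -0.68. Nnat had 1.58, 1.57 and 0.78, and Adamts9 1.32, 0.65 and 0.84. Which inhibitor lay farthest from DMSO differed from gene to gene: LY294002 in Evi2a and Adamts9, U0126 in Il1rn and SB202190 in Has2.

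An average can also pass where 1 compound stands on the other side of DMSO. Car3, a carbonic anhydrase, averaged 0.83 with differences of -0.02, 1.11 and 1.4 for LY294002, U0126 and SB202190. Tnfsf11, which encodes the osteoclast factor RANKL, averaged -0.82 with 0.26, -1.48 and -1.23, and Wif1, a secreted Wnt inhibitor, -0.69 with 0.14, -0.61 and -1.61. Klk10, a secreted serine protease, averaged -0.78 with -0.95, -1.41 and 0.02, and the BMP antagonist Chrdl1 0.56 with 0.53, 1.31 and -0.15. H2aw, a histone gene, averaged 0.62 with 1.19, -0.03 and 0.70. In 11 probe sets all 3 inhibitors passed with unlike signs, and 2 of them read Cxcl14, a chemokine, which was 0.61 higher with LY294002 and -0.60 and -1.01 with the other compounds by its brightest probe set. Myl9, a myosin light chain, was another, with 0.61, 1.07 and -0.34.

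Readouts of the ERK and PI3K pathways were counted in lists, and no list of p38 readouts was used. The counts of these and later lists are calls of the average. By brightest probe set, 15 of the 15900 genes passed higher and 14 lower in all 3 inhibitors. Among them were 1 higher gene each of the NRF2, protease and TGF-beta and BMP lists. The Wnt list had 1 lower such gene, the chemokine and interleukin list 2 lower, and every other list 0. Over all 15900 genes 2.61% were higher and 0.818% lower, which stand beside each count of a list. The lists were chosen with earlier results of these data known, so a count above these shares is a description and not a test. Of 25 ERK feedback and ETS genes 1 was higher and 2 were lower, with a median of -0.04 beside 0.01 over all genes. Fosl1, an AP-1 factor induced by ERK, read 9.32, 9.25 and 9.49 with DMSO and averaged -0.69 ± 0.087, with -0.99, -0.81 and -0.27 for LY294002, U0126 and SB202190. The list median was -0.27 with U0126, 0.07 with LY294002 and 0.00 with SB202190. With any 1 array left out, save DMSO array 1 and LY294002 array 3, the higher count of the list was 0. Its lower count was 1 without DMSO array 2 or 3, LY294002 array 2, U0126 array 1 or 2 or SB202190 array 1 or 2. Of 33 immediate early genes 1 was higher and 1 was lower: Klf2, which is also a FOXO target, averaged 0.88 ± 0.13, and Arc averaged -0.56 ± 0.13. The lower count of that list was 0 without DMSO array 2 or 3 or SB202190 array 1, and the higher count was 2 without LY294002 array 1 or 3 and 4 with the replicate block. Of 27 FOXO targets, the genes that PI3K signalling keeps low through Akt, 3 were higher and 1 was lower. Gadd45a averaged 0.48 with 0.78, -0.20 and 0.87 for the 3 compounds, Txnip 0.37 with 1.14, -0.36 and 0.32, and Ddit4 -0.70. The FOXO list had 1 higher member without DMSO array 2 or 3, 5 without DMSO array 1 and 6 with the replicate block, and 0 lower without any 1 of the DMSO arrays, LY294002 array 2 or SB202190 array 2. Of 26 genes of insulin and growth factor receptor feedback 3 were higher and 3 were lower, among them Fgfr3 at 0.49, the receptor Met at -0.59, the adaptor Grb14 at -0.52 and Igfbp6 at -0.49. The higher count there was 0 without DMSO array 2 or 3, 1 without LY294002 array 2, U0126 array 1 or 3 or SB202190 array 2 or 3, and 7 with the replicate block.

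Of 39 genes of lysosomes and autophagy 7 were higher and 1 was lower, beside 2.61% and 0.818% of all genes. The list median was 0.14, with 0.18, 0.07 and 0.24 for LY294002, U0126 and SB202190. Ulk1, the kinase that starts autophagy, read 9.19, 9.19 and 9.23 with DMSO and averaged 0.45 ± 0.072, Glb1, the lysosomal galactosidase, 0.45 ± 0.085 and Sqstm1, an autophagy receptor, 0.34 ± 0.081. The 1 lower member was Mitf, a transcription factor of lysosomal genes, at -0.63 ± 0.078 with -1.27 in U0126. Without DMSO array 2 or 3 only 1 of the list was higher, without U0126 array 3 or SB202190 array 2 or 3 it was 2, without LY294002 array 1 or 2 and after quantile normalization 4, and with the replicate block 11. Of 25 NRF2 antioxidant genes 3 were higher, with Srxn1 at 0.47 beside Gstm1 and Sqstm1, and 6 were without DMSO array 1 or U0126 array 2, 1 without DMSO array 2 and 10 with the replicate block.

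Ribosome biogenesis genes had lower means in 33 of 34 members, beside 7522 of all 15900 genes, and the medians were -0.17, -0.12 and -0.18 in the 3 inhibitors. Only Dkc1, a pseudouridine synthase of the nucleolus, passed, at -0.39 ± 0.092 (limma adjusted p = 0.0349), while 14 of the 34 had an unadjusted p under 0.05. Quantile normalization gave 12 lower members, the replicate block 6 and centring each array on its median 0. With DMSO array 1, 2 or 3, LY294002 array 2, U0126 array 2 or 3 or any SB202190 array left out, 0 passed. Of 31 cytosolic ribosomal protein genes 0 passed, with a median of 0.09, and 1 had an unadjusted p under 0.05. Their means were higher in 29, beside 8378 of all 15900 genes. Of 41 cell cycle genes 0 passed, with 1 unadjusted p under 0.05 and a median of -0.03. The share of all genes at that unadjusted threshold was not counted.

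No gene passed among 20 of cholesterol synthesis and uptake, 20 of fatty acid synthesis, 30 of amino acid response, 24 p53 targets, 25 interferon response genes, 26 chaperones, 17 circadian genes and 14 D cyclins and CDK inhibitors. The unadjusted p was under 0.05 in 0, 2, 3, 9, 4, 2, 2 and 3 of them in that order. The share of all genes at that unadjusted threshold was not counted, so no background stands beside these counts. The largest differences among the genes of these lists were 0.40 in Sesn1, which is on the p53 and FOXO lists, and 0.37 in Rbl2, a relative of the retinoblastoma protein. The p53 list itself had lower means in 17 of 24 members, beside 7522 of all 15900 genes, and a median of -0.11. With the replicate block 7 of the 8 lists had calls: 1 higher and 1 lower for fatty acid synthesis, 2 higher for amino acid response, 2 higher and 3 lower for p53 targets, 1 lower for interferon response, 1 lower for chaperones, 1 higher for circadian genes and 3 higher for D cyclins and CDK inhibitors. The block gave an adjusted p of 0.0118 for Sesn1 and 0.0412 for Rbl2. After quantile normalization Acsl5 of fatty acid synthesis and the chaperone gene Hyou1 passed as lower (limma adjusted p = 0.000984 and 0.0119). The circadian gene Cry2 and Sesn1 passed as higher there (0.0221 and 0.0447), and Rbl2 did not pass (0.0589). With 1 array left out, the p53 list had 2 higher members without DMSO array 1 and 1 without LY294002 array 3, the cyclin list 1 without DMSO array 1, and the fatty acid list 1 higher without LY294002 array 2 or U0126 array 2 and 1 lower without LY294002 array 1.

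**Figure D4:**
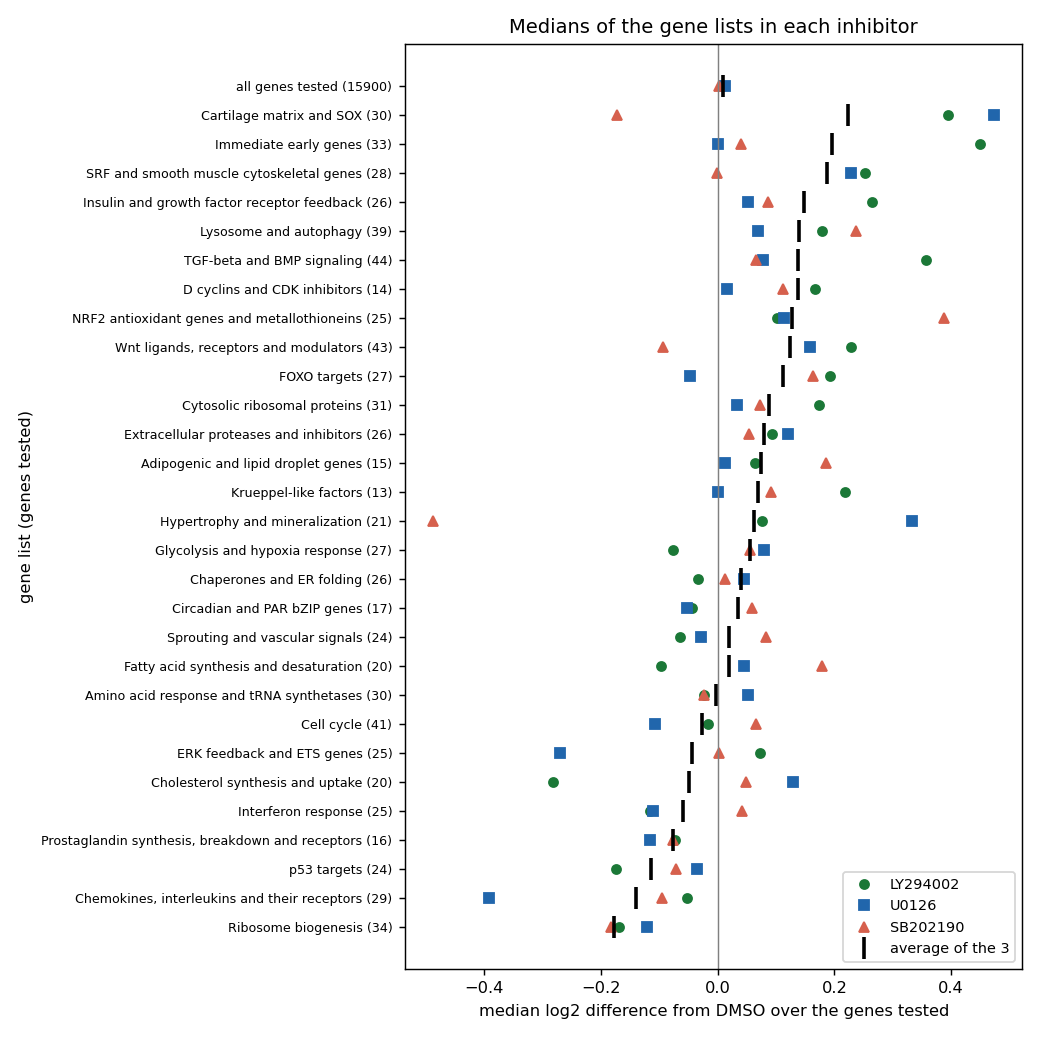
Median log2 difference from DMSO (horizontal axis) over the tested genes of each of the 29 pathway lists and of all 15900 genes (vertical axis, number of genes tested in parentheses); circles are LY294002, squares U0126, triangles SB202190 and black ticks the average of the 3. Ribosome biogenesis has close medians of -0.17, -0.12 and -0.18, while cartilage matrix genes have 0.39, 0.47 and -0.17.

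Of 30 cartilage matrix and SOX genes 1 was higher, Fgfr3, the receptor that restrains chondrocyte proliferation, and 0 were lower, while 23 of the 30 differed among the inhibitors by the F test against 11.7% of all genes. As the mean of all its probe sets Fgfr3 did not pass (limma adjusted p = 0.338). The medians were 0.39 with LY294002, 0.47 with U0126 and -0.17 with SB202190. Matn1, a matrix adaptor protein, had 0.76, 0.66 and -0.09, and Col11a2, a fibrillar collagen, 0.63, 0.81 and -0.07. Summed over 12 chondrocyte markers the signal was 65500 to 69700 with DMSO, 84600 to 87500 with LY294002, 83400 to 97300 with U0126 and 57800 to 67400 with SB202190, so that 2 compounds lay above DMSO and SB202190 overlapped it. With the replicate number as a block 12 of the 30 were higher, without DMSO array 2 or 3 none was, and 2 were without U0126 array 2.

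**Figure D5:**
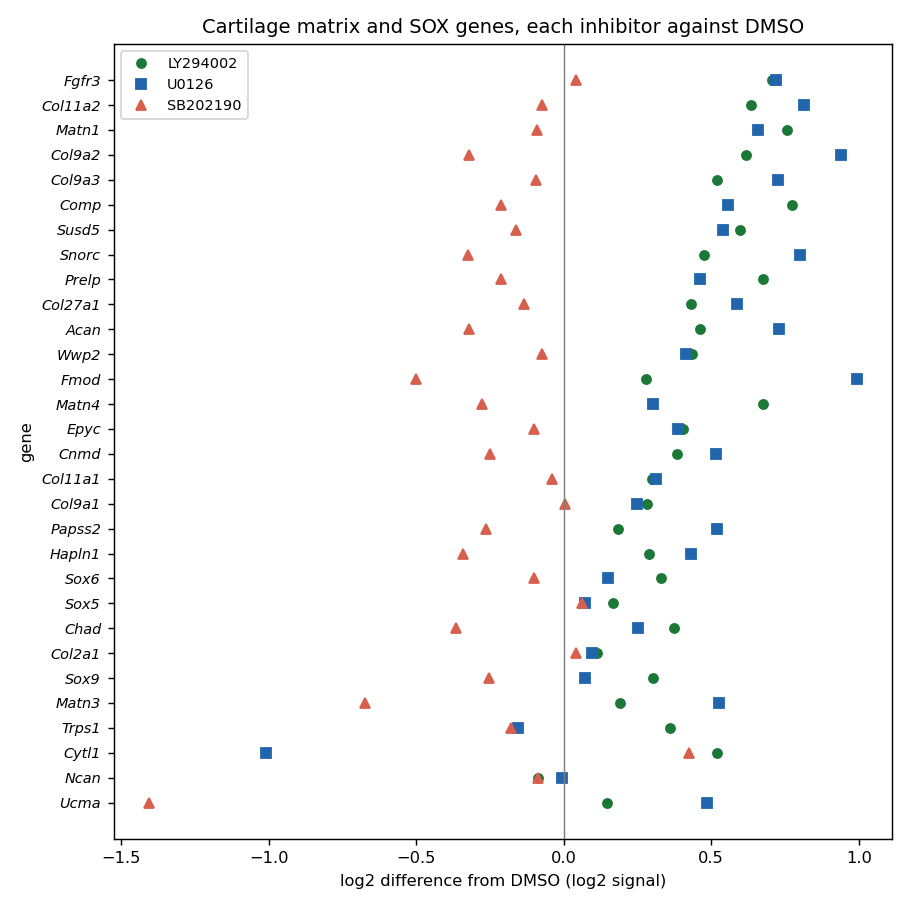
Log2 difference from DMSO (horizontal axis) of the 30 tested cartilage matrix and SOX genes (vertical axis, ordered by the average); circles are LY294002, squares U0126 and triangles SB202190. Most LY294002 and U0126 points lie above 0 and most SB202190 points below it, as in Matn1 with 0.76, 0.66 and -0.09.

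Of 21 genes of hypertrophy and mineralization 4 were lower and 0 higher, beside 0.818% and 2.61% of all genes. In all 3 inhibitors with the same sign 0 of them passed. By the F test 16 of the 21 differed among the inhibitors, against 11.7% of all genes. The list medians were 0.08 with LY294002, 0.33 with U0126 and -0.49 with SB202190. F13a1, the A subunit of the transglutaminase factor XIII, read 8.57, 8.30 and 8.44 with DMSO, 8.22, 7.65 and 7.64 with LY294002, 7.99, 7.70 and 7.80 with U0126 and 6.61, 6.73 and 6.78 with SB202190. The SB202190 arrays were far the lowest, and the average was -0.98 ± 0.13 (limma adjusted p = 0.0013). Phlda2, a pleckstrin homology protein, averaged -0.53 with -1.02, -0.07 and -0.50, and Ank, a pyrophosphate transporter, -0.44 with -0.35, -0.92 and -0.06. The other lower gene was Tnfsf11. Nr4a1, a nuclear receptor, averaged 0.81 ± 0.40 (adjusted p = 0.354) and Adamts5, an aggrecanase, 0.41 ± 0.12 (adjusted p = 0.1), so that neither passed, although Adamts5 did with the replicate block (adjusted p = 0.0282). F13a1, Phlda2, Nr4a1 and Adamts5 were followed by the study for PI3K inhibition on these arrays, and their values are not independent of that choice. F13a1 and Phlda2 are among the 4 lower genes of the list, so its lower count is not independent of that choice either.

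Beside 2.61% of all genes higher and 0.818% lower, 8 of 43 Wnt genes were higher and 2 lower (median 0.12): the antagonists Sostdc1 and Frzb averaged 0.66 and 0.50, and Wif1 and Wnt10a were the lower ones. Of 44 TGF-beta and BMP genes 6 were higher and 0 lower (median 0.14), with Gdf10, Chrdl1, the inhibitory factor Id4 at 0.39 and the TGF-beta binding protein Ltbp3 at 0.39. Of 28 SRF and smooth muscle cytoskeletal genes 6 were higher and 0 lower (median 0.19), with Fhl1 at 0.43, Acta2 at 0.37 and Fhl2 at 0.35. Fhl2 had 0.38, 0.36 and 0.31 in LY294002, U0126 and SB202190, while Fhl1 had 0.62, 0.69 and -0.01. Passing in all 3 inhibitors with the same sign were 1 lower Wnt gene, 1 higher gene of the TGF-beta and BMP list and 0 SRF genes. Leaving out DMSO array 2 or 3 left 1 and 1 of the Wnt genes, 0 and 0 of the TGF-beta and BMP genes and 1 and 2 of the SRF genes higher. The TGF-beta and BMP count was 10 without DMSO array 1, 3 without U0126 array 1 or SB202190 array 2 or 3 and 12 with the replicate block, and the SRF count was 3 without U0126 array 1 or 3 or SB202190 array 1 and 10 with the block.

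Of 26 extracellular proteases and inhibitors 4 were higher and 1 lower, beside the same 2.61% and 0.818%. Reck, a membrane inhibitor of metalloproteases, read 10.61, 10.49 and 10.29 with DMSO, 11.56, 11.58 and 11.40 with LY294002, 10.88, 10.71 and 10.87 with U0126 and 10.88, 11.03 and 11.00 with SB202190. All inhibitor arrays lay above DMSO, LY294002 the farthest, and the average was 0.64 ± 0.083. Mmp11 averaged 0.63 and Mmp3 -0.71. The higher count was 2 without DMSO array 2 or 3 and 7 with the replicate block. The lower count was 4 with the block and 0 after median centring or without any 1 of the DMSO arrays, LY294002 array 2, U0126 array 2 or 3 or SB202190 array 2. Of 29 chemokines, interleukins and receptors 1 was higher, Cxcl12 at 0.49, and 3 were lower, Il1rn, Il13ra1 and Cxcl14, with a list median of -0.14. The higher count was 0 without DMSO array 2 or 3 or SB202190 array 2, 2 without DMSO array 1 and 3 without U0126 array 2, and the block gave 3 higher and 6 lower.

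Among signals to vessels and of prostaglandins, the natriuretic peptide clearance receptor Npr3 averaged 0.97 ± 0.11 with 1.20, 1.17 and 0.54, and Npr2, its signalling relative, 0.33. Ednrb, an endothelin receptor, averaged -0.90 ± 0.085 (limma adjusted p = 4.8e-05) with -1.58, -0.99 and -0.13, and Vegfd, a vascular growth factor, -0.40. Hpgd, which breaks down prostaglandins, read 9.39, 9.08 and 8.85 with DMSO, 7.34, 7.08 and 6.72 with LY294002, 8.70, 8.64 and 8.39 with U0126 and 7.96, 8.31 and 8.53 with SB202190. Its average was -1.14 ± 0.15, and the LY294002 arrays stood apart from all others. Lpl, lipoprotein lipase, averaged 0.63 with 0.14, 0.97 and 0.79.

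Of 11 tested keratinocyte and epithelial genes 11 had lower means, beside 7522 of all 15900 genes. The 3 that passed were Krt18 at -1.03 ± 0.082, Krt7 at -0.64 ± 0.13 and Dsp at -0.62 ± 0.12. Krt18, a keratin of simple epithelia, read 8.98, 8.67 and 8.77 with DMSO, 7.38, 7.35 and 7.30 with LY294002, 7.59, 7.32 and 7.33 with U0126 and 8.60, 8.60 and 8.57 with SB202190. The SB202190 arrays lay just under the lowest DMSO array and the others far below. The summed signal of the list was 4870 to 5500 with DMSO, 3780 to 4460 with LY294002, 4280 to 4720 with U0126 and 4960 to 5070 with SB202190, and Cdh1, the defining cadherin of epithelium, was below the filter level. Without DMSO array 3 only 1 of the 3 passed and without DMSO array 2 only 2 did. Of 25 tested skeletal muscle genes 1 passed, Cav3 at -0.60, and of 19 fibroblast and perichondrium genes 1, Tnmd at 0.51. The muscle count was 0 without DMSO array 3, and the fibroblast one was 0 without DMSO array 2 or 3, LY294002 array 1 or 2, U0126 array 1 or SB202190 array 1 or 2.

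Against Trichostatin A, the average of the kinase inhibitors differed at 45.0% of all probe sets and at 37 of the 49 shared ones. Nnat differed from DMSO by 3.94 with Trichostatin A, beside 1.31 with the kinase inhibitors, and Evi2a by -2.63 beside -0.91. Most of the 49 moved from DMSO in the same direction with Trichostatin A as with the kinase inhibitors, and both differences use the same DMSO arrays. The share of all tested probe sets that did so was not counted. Fewer members went the other way, among them Gdf10 by -1.94 beside 0.59, Card10 by 1.16 beside -0.36 and Slc7a2 by -0.62 beside 0.44. Gjb2 was close in both, at -1.08 and -0.95, and the average did not pass against Trichostatin A there (limma adjusted p = 0.159). The same held for Has2, at -0.99 beside -0.85 (adjusted p = 0.317), and Tmem132a, at 0.63 beside 0.57 (adjusted p = 0.47), among others. Prg4 was 0.31 higher with Trichostatin A (adjusted p = 0.261) on arrays that ranged from 8.96 to 10.17.

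Of the 24 named shared genes, 8 kept the call of the average under all 28 alternative settings: Nnat, Adamts9, Gstm1, Podxl2, Prg4, Il1rn, Gjb2 and U90926. With 1 array left out, Gdf10 (DMSO array 2 or 3) and Fbxl7 (DMSO array 3) were the ones of the 24 that lost it. Of all 79 named genes called in the average 33 lost the call without DMSO array 2, 37 without DMSO array 3, 0 without LY294002 array 3 and between 3 and 14 without any other array. Ednrb and Krt18 were the other named genes that kept it throughout.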

How the data were processed

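Total RNA of 15 cultures was hybridized to Affymetrix MOE 430 2.0 arrays. The authors deposited a table of log2 signal per probe set, normalized between arrays; the methods name GC-RMA for the arrays and RMA for another analysis, and which of them made the deposited log2 values is not settled, which bears on low signals. The members and lists were chosen with earlier results of these data known. Here, 64 control probe sets were left out, probe sets below a signal of 50 (5.64 on the log2 scale) on both sides were dropped, and limma (version 3.58.1, R 4.3.3) fitted 5 treatment means to the 15 arrays, which left 10 residual degrees of freedom, with Benjamini-Hochberg adjustment over 34509 probe sets. Genes were taken from the platform annotation, in which 34945 probe sets had 1 symbol, 932 several and 9160 none, and the RefSeq table of GRCm38.p6 gave chromosomes. The named genes were the 12 highest and 12 lowest shared genes by representative probe set, up to 4 members of each list that were called (2 where none was), 6 with 1 inhibitor on the other side of DMSO, 6 with unequal sizes and 4 followed by the study; other shared members are named after their values were seen. The tests were checked on simulated arrays that were drawn independently, so the check does not cover deviations shared by arrays of the same number. Arrays of the same number deviated together over DMSO and the 3 inhibitors (correlation 0.219 to 0.77 over 18 pairs of arrays), so the numbers were taken to pair these 12 arrays. The main fit does not use this pairing, and the SE and adjusted p values are from it unless another setting is named. In the 12 pairs with a Trichostatin A array the correlation ran from -0.115 to 0.479 and was at most 0.1 in 2, both of replicate 3, so the numbers were not shown to pair that group, whose arrays are in the blocked fit unless left out by name. The alternatives were the replicate block, other filters and normalizations, other priors, sets of arrays and pairs of inhibitors.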

Additional observations from a re-analysis of the deposited data

Results flagged for a closer look

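Effects of the 3 inhibitors against DMSO that differed from each other were picked out among the shared genes, by limma's moderated F test, with adjusted p values over all probe sets. These were Il1rn (4.49e-05), farthest from DMSO with U0126; Adamts9 (0.000357), Efnb2 (0.000938), Evi2a (0.00343) and Armh4 (0.00907), farthest with LY294002; and Has2 (0.002), farthest with SB202190. Nnat (0.00106) was nearest to DMSO with SB202190, and U90926 (0.0294) farthest with U0126. The ninth probe set was 1 of Gstm1 (0.0495), farthest with SB202190, while the brightest Gstm1 probe set gave 0.0537. The Efnb2 value is that of its shared probe set, which is not its brightest.

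Groups of 3 arrays were too small for a check of single arrays that stand apart.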

How the results depend on the processing

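With the replicate number as a block, which paired the DMSO and inhibitor arrays but was not shown to pair those of Trichostatin A, the average gave 1843 higher and 727 lower probe sets, the shared set 100 and 79, and the test among inhibitors 6284, and the 853 and 49 of the fit without it were all kept. Chosen after seeing the data, the block without the Trichostatin A arrays gave 2380 and 968, 152 and 112, and 7440. Quantile normalization gave 885 and 548, and 55 and 55 in the shared set. The average of U0126 and SB202190 gave 156 and 131, that of LY294002 and SB202190 1235 and 356, and that of LY294002 and U0126 976 and 362. A rule of 1.4-fold in each inhibitor gave 11 and 38. With each array left out in turn the average ranged from 84 to 1146 higher and 83 to 269 lower, the shared set from 10 to 45 and 9 to 28 (9 without SB202190 array 1), the test among inhibitors from 2104 to 3710 and the comparison with Trichostatin A from 14861 to 16030. With replicate 1, 2 or 3 left out of every treatment, also chosen later, the average gave 428, 5 and 44 higher and 121, 10 and 32 lower, the shared set 16, 2 and 2 higher and 16, 3 and 4 lower, and the test among inhibitors 1875, 601 and 1169. The causes were not tested. Txnip changed sign in the average of U0126 and SB202190 (-0.017) and Cxcl14 in that of LY294002 and U0126 (0.0031). The other filters, the trended prior, median centring and the fit without Trichostatin A kept these counts within 1.5 times, and the arrays' number and low signals limit what can be called.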
